A study of Caenorhabditis elegans with 12 samples.

Results

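The RNA of 10 Caenorhabditis elegans genes for germline histone methylation and chromatin regulation was described: mes-2, mes-3, mes-6, mes-4, met-1, met-2, set-25, set-2, spr-5 and mrg-1. They were chosen by name, as known regulators of histone methylation in the worm germline, with earlier results of these data known. Their rows were read from a table of estimated counts for 46904 gene IDs. All 10 were among the 16526 genes that passed a filter on low counts and were tested.

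The study sequenced polyadenylated RNA of whole worms in 12 libraries, 3 liquid cultures of each of 2 strains, labelled wt and glh1. GLH-1 is a germline RNA helicase of the Vasa family found in P granules, and the series, by its title, compares RNA levels and polysome loading between worms that have the gene and worms that lack it. Worms of both strains hatched from bleached embryos and were kept at 20 °C for about 40 h, by which time young adults predominated. One portion of each lysate gave total RNA and the other gave polysomal RNA, taken from the polysome part of a 10 to 50% sucrose gradient, so each of the 4 groups held 3 libraries. No drug or other treatment of the worms is given beyond this growth, cycloheximide was in the lysis buffer of all samples, and the sources used here do not give the glh1 allele. That the 3 numbers are separate cultures follows from the design text; a culture pools very many animals and their germ cells with all somatic tissues, so fewer cells of a type and less RNA per cell cannot be told apart.

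Germ cells carry information about which genes were active in the parental germline as methylation of lysine residues on histone H3. MES-2, MES-3 and MES-6 form the worm Polycomb complex PRC2, which methylates H3K27 and keeps genes silent, whereas MES-4 and MET-1 methylate H3K36 on transcribed genes. MET-2 and SET-25 methylate H3K9 in heterochromatin, SET-2 methylates H3K4 at promoters, SPR-5 removes methyl groups from H3K4, and MRG-1 is a chromodomain protein of the family that binds methylated H3K36.

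The libraries held 34520267 to 49672537 estimated counts, with 137 to 6113 for a regulator in a library. Genes for rRNA made up 28.8 to 40.4% of the counts in wt total RNA and 13.5 to 27.9% in glh1 total RNA. Their share was 4.89 to 9.51% in wt polysomal RNA, and 3.07, 45.7 and 16.4% in the glh1 polysomal libraries 1 to 3. The mRNA of glh-1 itself did not mark the libraries labelled glh1 by a loss. It lay at 306 to 424 CPM (counts after scaling libraries to one size with TMM factors) in wt total RNA and at 532 to 586 in the total RNA labelled glh1, and in polysomal RNA it was called higher (log2 fold change 1.62, adjusted p = 0.0116, edgeR). On the first principal component the polysomal glh1 library 3 stood apart, at 136 against 36.5 to 55.7 for the other polysomal libraries. On the second, both libraries of wt culture 1 lay with the glh1 libraries. The tissue label reads whole embryo, but 10 markers of zygotic embryonic transcription summed to only 12.6 to 23.0 CPM, and med-1 was at 0 in most libraries. Summed CPM of 10 germline markers ran from 822 to 1744 and of 9 oocyte markers from 1088 to 4005.

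**Figure D1:**
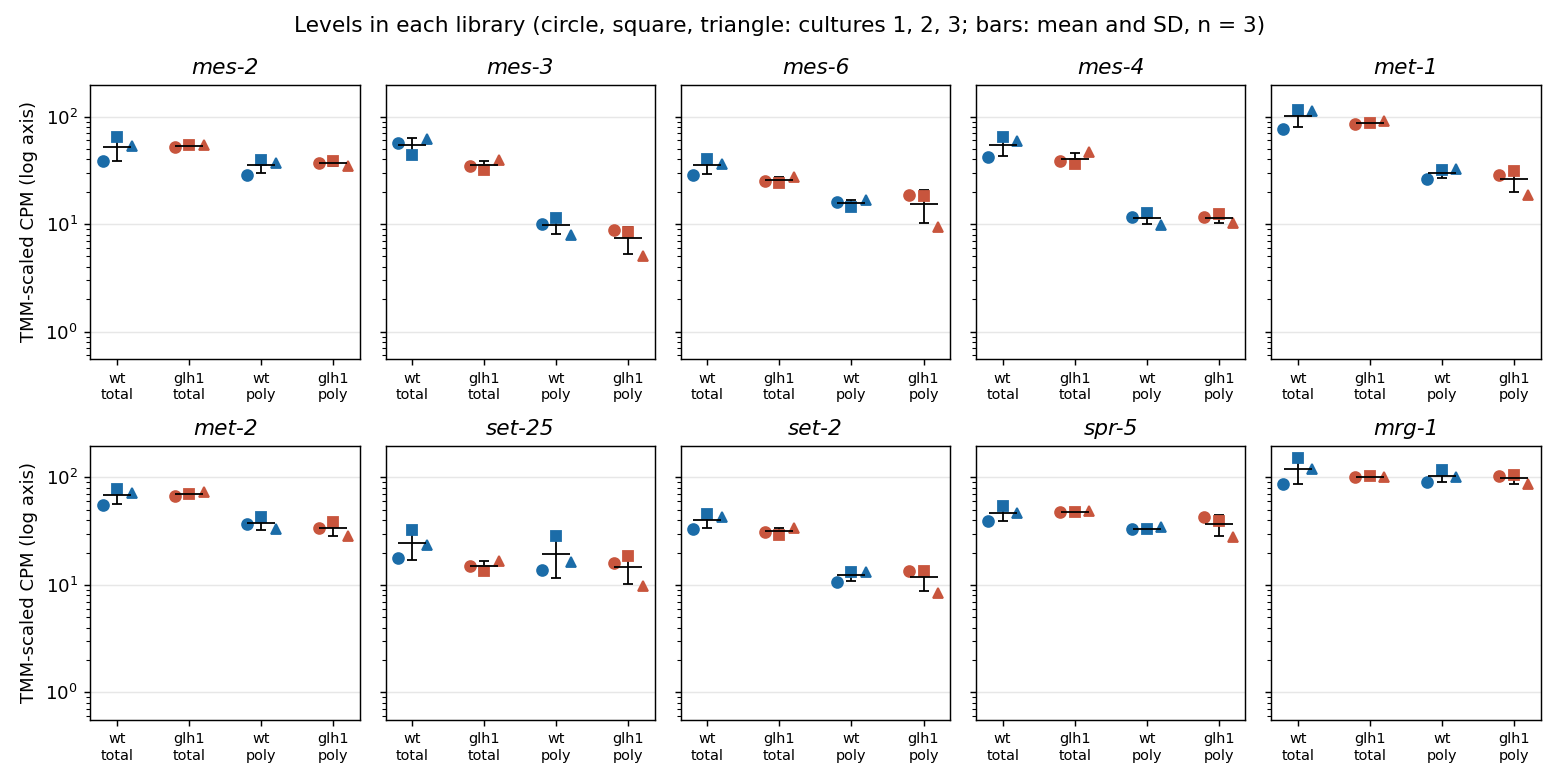
Level of each regulator in each library, as TMM-scaled CPM on a log axis. Blue points are wt and red points glh1; total RNA is on the left of each panel and polysomal RNA (poly) on the right; bars show the mean and SD of 3 cultures. The gap between total and polysomal RNA is widest for mes-3 and mes-4 and smallest for set-25 and mrg-1.

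Compared per kilobase of merged exon, mrg-1 had the highest level of the 10 in all 4 groups, at 79.0 ± 21.3 CPM per kb in wt total RNA (SD, n = 3) against 21.1 ± 5.44 for mes-2, the next. Its lowest wt total library, at 57.8, lay above the highest of any other regulator, 26.3. In wt total RNA mes-2, mes-6, met-1, spr-5, mes-4, mes-3 and met-2 followed between 21.1 and 16.6 CPM per kb on average, and neighbours in that order overlapped between libraries. Below them were set-25 at 8.71 ± 2.6 and set-2 at 7.38 ± 1.2, which overlapped each other but not the rest. The order was different in wt polysomal RNA, where mes-2 (14.2 CPM per kb) and spr-5 (12.8) followed mrg-1 (68.3), and mes-4 (3.65), mes-3 (3.14) and set-2 (2.24) came last. The glh1 groups had the same first and last genes in polysomal RNA, mrg-1 at 65.6 and set-2 at 2.14 CPM per kb.

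In the comparison of genotypes, which asks what differs with the glh1 label, none of the 10 regulators was called in either fraction (edgeR quasi-likelihood test, adjusted p under 0.05 over all genes tested). Across all genes 0.514% were called higher and 0.43% lower in total RNA, and 0.545% higher and 0.514% lower in polysomal RNA. In total RNA 7 of 10 log2 fold changes were negative, with a median of -0.29 against -0.07 for all genes. In polysomal RNA the median was -0.06 against -0.01. By unadjusted p under 0.05 there were 3 regulators in total RNA (mes-3, mes-4 and set-25), beside 17.8% of all genes, and 0 in polysomal RNA, beside 15.7%. DESeq2 called 0 regulators in both fractions, against 2.52% of all genes higher and 2.81% lower in total RNA and 2.77% higher and 1.86% lower in polysomal RNA. For scale, 20 of 99 genes, drawn from all genes tested and given a 2-fold change in simulated total RNA, were called. The SE of a regulator in that comparison was 0.18 to 0.31, below the median of 0.306 for all genes except for set-25.

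The comparison of fractions asks how the level of an mRNA in polysomal RNA stood against its level in total RNA. In it 7 of 10 regulators were lower in polysomal than in total RNA of wt cultures, and the same 7 were lower in the libraries labelled glh1. These were mes-3, mes-4, met-1, set-2, mes-6, met-2 and mes-2, from 0.181 times the total level for mes-3 to 0.674 times for mes-2 in wt. Over all genes 19.8% were called lower and 20.1% higher in wt, and 19.1% lower and 23.6% higher in glh1. The regulators' median log2 fold change was -1.02 in wt and -0.90 in glh1, against 0.06 and 0.13 for all genes. Germ cell markers were low in polysomal RNA too. Of 10 germline markers 5 were called lower in each genotype, with 0 higher in wt and 2 in glh1 (medians -0.64 and -0.61). Of 9 oocyte markers 4 were called lower in wt and 1 in glh1, with 0 higher (medians -0.87 and -0.44). Of 10 sperm markers 6 were higher and 1 lower in wt, and 4 higher and 2 lower in glh1. Each level is relative to the other RNA in its library, so the comparison sets a share of polysomal RNA against a share of total RNA. It gives neither an amount nor the part of an mRNA that was on polysomes. With upper-quartile scaling the median of all genes moved to 0.32 in wt and 0.28 in glh1, and the calls over all genes from 3321 higher and 3272 lower to 4833 and 2384 in wt, and from 3901 and 3163 to 4808 and 2624 in glh1; 6 regulators in wt and 7 in glh1 were then called lower and none higher, against 14.4% of all genes lower and 29.2% higher in wt, and 15.9% lower and 29.1% higher in glh1.

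Of the PRC2 subunits, mes-2 encodes the methyltransferase, related to Drosophila Enhancer of zeste (WBGene00003220, chromosome II, 14383973 to 14388454 in WBcel235). Its mRNA was at 38.4, 65.3 and 53.5 CPM in wt total RNA of cultures 1 to 3, and at 51.9, 54.3 and 54.8 CPM in glh1 total RNA. On polysomes the levels were 28.8, 39.7 and 37.4 CPM in wt and 36.8, 39.0 and 34.5 CPM in glh1. The fractions overlapped in wt, through the low total library of culture 1, and not in glh1. The log2 fold change from total to polysomal was -0.57 ± 0.20 in wt (SE; adjusted p = 0.0362) and -0.55 ± 0.20 in glh1 (adjusted p = 0.0407, edgeR). These are the weakest of the calls. In wt it was lost with upper-quartile scaling (-0.29, adjusted p = 0.125), without the wt total library 2 (-0.38, adjusted p = 0.153) or 3 (-0.51, adjusted p = 0.0996), without the wt polysomal library 1 (-0.38, adjusted p = 0.121) or 3 (-0.61, adjusted p = 0.0734), and without any 1 of the glh1 total libraries (-0.53 to -0.57, adjusted p = 0.0566 to 0.0578, edgeR). It was lost there too with no filter on low counts (-0.52, adjusted p = 0.0562) and in a fit of only the groups compared (-0.57, adjusted p = 0.0686, edgeR). In glh1 it was lost without the total library 2 (-0.53, adjusted p = 0.101) or 3 (-0.62, adjusted p = 0.0529), the polysomal library 2 (-0.59, adjusted p = 0.0603) or 3 (-0.50, adjusted p = 0.0734), or the wt polysomal library 3 (-0.54, adjusted p = 0.0574, edgeR).

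The gene mes-3 encodes a PRC2 subunit needed for the complex's activity (WBGene00003221, chromosome I, 4996835 to 5003202). It was at 56.6, 43.8 and 62.1 CPM in wt total RNA and at 34.7, 31.6 and 39.2 CPM in glh1 total RNA. Its polysomal RNA was at 9.97, 11.5 and 7.95 CPM in wt and at 8.78, 8.44 and 5.00 CPM in glh1. Every polysomal library lay far below every total library of its genotype. The difference, -2.46 ± 0.25 in wt (adjusted p = 3.85e-05) and -2.24 ± 0.24 in glh1 (adjusted p = 8.81e-05, edgeR), is the largest of the 10, and 1.15% of all genes tested in wt had a lower log2 fold change. Between genotypes all 3 glh1 total libraries lay below all 3 wt ones, with a log2 fold change of -0.62 ± 0.23 that was not called (adjusted p = 0.201; 95% interval -1.13 to -0.12). Leaving out the polysomal glh1 library 3, which is no part of that contrast but of the shared estimate of spread, brought this to adjusted p = 0.0413 (edgeR). Under that omission the calls over all genes rose from 85 higher and 71 lower to 598 higher (3.55%) and 853 lower (5.06%).

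The gene mes-6 encodes a WD40 protein related to Drosophila Extra sexcombs (WBGene00003224, chromosome IV, 8511284 to 8513469). It was at 28.9, 40.2 and 36.4 CPM in wt total RNA and at 25.3, 24.0 and 27.6 CPM in glh1 total RNA. In polysomal RNA it was at 16, 14.4 and 16.6 CPM in wt and at 18.5, 18.4 and 9.45 CPM in glh1. The fractions were separate in both genotypes, with glh1 polysomal library 3 well below its group. Polysomal RNA was lower, with a log2 fold change of -1.17 ± 0.24 in wt (adjusted p = 0.00261) and -0.73 ± 0.24 in glh1 (adjusted p = 0.0270, and 0.0536 without the glh1 total library 2 at -0.77, edgeR). It shares 380 exon bases on the same strand with C09G4.4, at 9.26 to 22.0 CPM, so reads in that stretch may have been divided between them. Estimated counts of mes-6 were off whole numbers in every library (1180.421 in wt total library 1), which held for no other regulator. C09G4.4 itself gave a log2 fold change from total to polysomal of -0.68 in wt and 0.42 in glh1, neither called. Its part in the mes-6 values was not tested.

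Within a library the ratio of subunits does not depend on the scaling, and for PRC2 it differed between the fractions. The ratio of mes-3 to mes-2 CPM was 0.582 to 1.47 in the 6 total libraries and 0.145 to 0.346 in the 6 polysomal libraries. That of mes-3 to mes-6 was 1.09 to 1.96 in total and 0.459 to 0.796 in polysomal RNA. Both were lower in the polysomal library of all 6 cultures, whereas mes-6 to mes-2 was lower in 4 of 6. Ratios of regulators that form a complex or act on the same mark, 6 in all, were chosen after their values were seen and are given without a test. They are not corrected for exon length, which is 3126 bases for mes-3, 2480 for mes-2 and 1676 for mes-6. In every pair that was lower in all 6 cultures the first gene was the longer. In mes-6 to mes-2 and mes-4 to met-1 it was the shorter. The part of length in the ratios was not tested.

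Of the H3K36 enzymes, mes-4 encodes an NSD-family methyltransferase that maintains the mark on germline genes (WBGene00003222, chromosome V, 13433050 to 13437545). It was at 41.9, 64.3 and 58.8 CPM in wt total RNA and at 38.8, 36.6 and 47.0 CPM in glh1 total RNA. The polysomal libraries held it at 11.6, 12.7 and 9.91 CPM in wt and at 11.7, 12.4 and 10.2 CPM in glh1. The polysomal values of the genotypes were nearly equal and all far below total RNA. The fall was -2.27 ± 0.20 in wt (adjusted p = 3.12e-05) and -1.84 ± 0.20 in glh1 (adjusted p = 9.18e-05, edgeR). Between genotypes it gave -0.43 ± 0.20 in total RNA (adjusted p = 0.273, edgeR), with overlap through wt culture 1.

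The gene met-1 encodes the Set2-like enzyme that places H3K36 methylation during transcription (WBGene00016603, chromosome I, 4254197 to 4264699). It was at 77.3, 116 and 112 CPM in wt total RNA and at 85.3, 87.6 and 91.3 CPM in glh1 total RNA. On polysomes the levels were 26.1, 31.7 and 32.3 CPM in wt and 28.9, 31.1 and 18.8 CPM in glh1. The fractions did not overlap in either genotype. The fall was -1.76 ± 0.22 in wt (adjusted p = 0.000109) and -1.74 ± 0.22 in glh1 (adjusted p = 0.000158, edgeR), and the genotypes differed in it by 0.02 (95% interval -0.64 to 0.67). The ratio of mes-4 to met-1 CPM was 0.527 to 0.553 in wt total RNA and 0.417 to 0.515 in glh1 total RNA, and it was lower in polysomal RNA in 5 of 6 cultures.

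Of the H3K9 enzymes, met-2 encodes the SETDB1-type enzyme (WBGene00019883, chromosome III, 8375300 to 8380848). It was at 55.9, 78.4 and 71.1 CPM in wt total RNA and at 67.1, 70.5 and 72.9 CPM in glh1 total RNA. Its polysomal RNA was at 36.5, 43.0 and 33.0 CPM in wt and at 33.8, 38.7 and 28.3 CPM in glh1. All polysomal libraries lay below all total libraries of their genotype. Polysomal RNA was lower, with a log2 fold change of -0.87 ± 0.18 in wt (adjusted p = 0.0027) and -1.06 ± 0.18 in glh1 (adjusted p = 0.000861, edgeR).

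The gene set-25 encodes the enzyme for H3K9 trimethylation (WBGene00012802, chromosome III, 13283824 to 13293090). It was at 17.7, 32.1 and 23.3 CPM in wt total RNA and at 14.9, 13.5 and 16.6 CPM in glh1 total RNA. In polysomal RNA it was at 13.8, 28.3 and 16.3 CPM in wt and at 16.1, 18.6 and 9.74 CPM in glh1. Wt culture 2 was the highest of its group in both fractions, and the fractions overlapped in both genotypes. The difference between fractions was not called, at -0.33 ± 0.31 in wt (adjusted p = 0.428) and -0.02 ± 0.31 in glh1 (adjusted p = 0.971, edgeR), and its sign in glh1 turned with upper-quartile scaling (0.13). Between genotypes the total libraries did not overlap, and set-25 had the most negative value of the 10, -0.70 ± 0.31 (adjusted p = 0.270; 95% interval -1.38 to -0.02, edgeR). It shares 64 exon bases with unc-64 on the opposite strand, and the sources used here do not say if strand was used in counting. Set beside each other, met-2 and set-25 CPM stood at a ratio of 2.44 to 3.16 in wt total RNA and 4.38 to 5.24 in glh1 total RNA, and the ratio was lower in the polysomal library of all 6 cultures.

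Of the enzymes for H3K4, set-2 encodes the SET1-type methyltransferase of the COMPASS complex (WBGene00004782, chromosome III, 4922427 to 4930204). It was at 32.8, 46.0 and 42.5 CPM in wt total RNA and at 31.2, 29.1 and 34.0 CPM in glh1 total RNA. The polysomal libraries held it at 10.6, 13 and 13.2 CPM in wt and at 13.5, 13.4 and 8.35 CPM in glh1. The fractions were widely separate. The fall was -1.72 ± 0.22 in wt (adjusted p = 0.000123) and -1.42 ± 0.22 in glh1 (adjusted p = 0.000466, edgeR), and the genotypes gave -0.36 ± 0.21 in total RNA (adjusted p = 0.393, edgeR).

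The gene spr-5 encodes an LSD1-type demethylase that acts on H3K4, the residue that SET-2 methylates (WBGene00005010, chromosome I, 13438058 to 13450218). It was at 39.0, 53.8 and 47.0 CPM in wt total RNA and at 47.7, 47.5 and 49.2 CPM in glh1 total RNA. On polysomes the levels were 32.8, 33.4 and 34.3 CPM in wt and 42.5, 39.4 and 27.7 CPM in glh1. The polysomal libraries lay below the total libraries in both genotypes without overlap, but the difference was not called, at -0.48 ± 0.18 in wt (adjusted p = 0.0532) and -0.40 ± 0.18 in glh1 (adjusted p = 0.0941, edgeR). It was called in wt without the wt total library 1 (-0.59, adjusted p = 0.0278) or the glh1 polysomal library 1 (-0.45, adjusted p = 0.0459) or 3 (-0.47, adjusted p = 0.00889, edgeR). In glh1 it was called without the glh1 polysomal library 1 (-0.60, adjusted p = 0.0225), the wt total library 3 (-0.49, adjusted p = 0.0418) or the wt polysomal library 1 (-0.49, adjusted p = 0.0309) or 2 (-0.49, adjusted p = 0.0403, edgeR). The ratio of set-2 to spr-5 CPM was 0.841 to 0.904 in wt total RNA, 0.611 to 0.692 in glh1 total RNA and 0.302 to 0.391 in all 6 polysomal libraries.

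The gene mrg-1 encodes a protein of the MRG15 family (WBGene00003406, chromosome III, 12871029 to 12874656). It was at 87.0, 151 and 119 CPM in wt total RNA and at 101, 103 and 101 CPM in glh1 total RNA. Its polysomal RNA was at 91.5, 117 and 99.8 CPM in wt and at 104, 106 and 86.1 CPM in glh1. The 4 groups overlapped throughout. Neither fraction difference was called, at -0.21 ± 0.20 in wt (adjusted p = 0.430; 95% interval -0.65 to 0.23) and -0.04 ± 0.20 in glh1 (adjusted p = 0.884; -0.48 to 0.40, edgeR), and with upper-quartile scaling both were positive, 0.07 and 0.11.

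**Figure D2:**
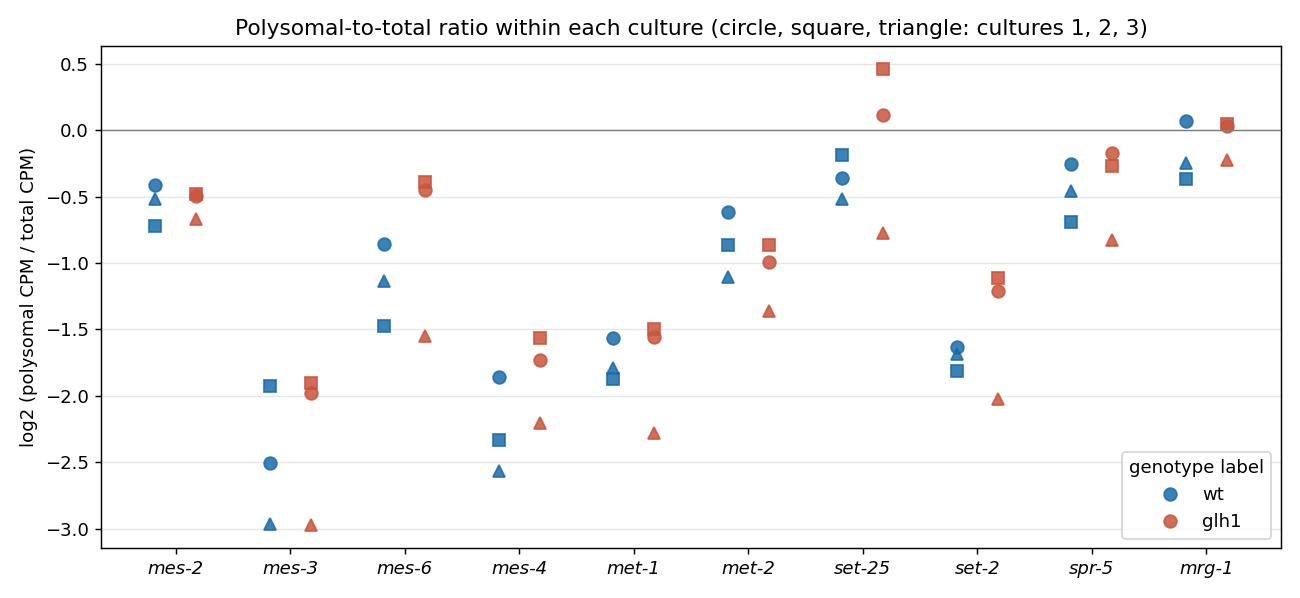
Polysomal over total CPM of each regulator within each culture, on a log2 axis where 0 means equal levels. Blue is wt and red is glh1, and circles, squares and triangles are cultures 1, 2 and 3. The ratio of mes-3 lies between -2.97 and -1.91 in all 6 cultures, and glh1 culture 3 is the lowest glh1 culture for all 10 regulators.

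Within each culture, the median polysomal-to-total log2 ratio of the 10 regulators was -0.73, -1.17 and -1.12 in wt cultures 1, 2 and 3 and -0.74, -0.67 and -1.46 in glh1 cultures 1, 2 and 3, while that of all genes stayed between -0.02 and 0.14. Between 8 and 10 regulators had a ratio under 1 in each culture. The exceptions were mrg-1 in wt culture 1 and in glh1 cultures 1 and 2, and set-25 in glh1 cultures 1 and 2, where its ratio was 1.08 and 1.38. Without overlap, 7 regulators were lower in polysomal RNA in wt (24.2% of all genes) and 8 in glh1 (29.3%). Between genotypes 3 did not overlap in total RNA, mes-3, mes-6 and set-25, all lower in glh1 (17.1% of all genes, with 16.6% higher), and 0 in polysomal RNA (8.08% lower and 9.48% higher).

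The difference between genotypes in the polysomal-to-total ratio was tested as an interaction, and 0 of 10 regulators were called, with 0% of all genes called higher and 0% lower. By unadjusted p under 0.05 there were 491 genes (2.97%) and no regulator, and DESeq2 called 1 gene higher (0.00605%) and 2 lower (0.0121%), no regulator among them. The values ran from -0.19 for met-2 (95% interval -0.74 to 0.36) to 0.44 for mes-6 (-0.30 to 1.17), with 9 of 10 above 0. Their median was 0.20 against 0.07 for all genes, and -0.06 against -0.04 without the wt polysomal library 1.

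**Figure D3:**
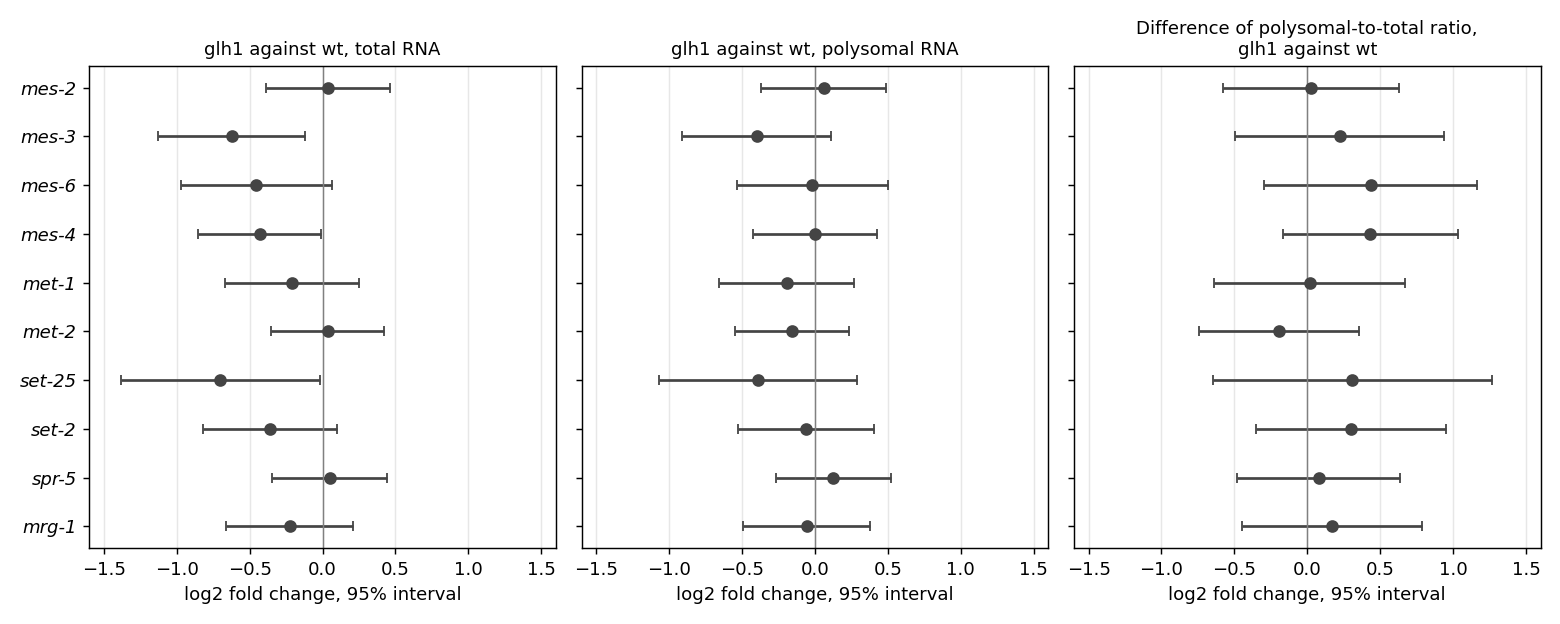
Log2 fold changes of glh1 against wt in total RNA (left) and polysomal RNA (middle), and of the polysomal-to-total ratio (right), with 95% intervals from the edgeR fit. In total RNA the intervals of mes-3, mes-4 and set-25 lie below 0 before adjustment, while in polysomal RNA and for the ratio all 10 intervals include 0.

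Levels of germline and oocyte markers were read beside those of the regulators. The summed level of the 10 regulators was 475, 691 and 625 CPM in wt total RNA and 498, 497 and 533 CPM in glh1 total RNA, so wt culture 1 was below all glh1 cultures and wt cultures 2 and 3 above them. The 10 germline markers summed to 1193 to 1744 CPM in wt and 1186 to 1245 CPM in glh1 total RNA, the 9 oocyte markers to 2348 to 4005 and 2288 to 2382 CPM. In total RNA the wt libraries 2 and 3 were thus the highest in all 3 sums, whereas in polysomal RNA of glh1 library 3 the regulators were the lowest of their group (238 CPM) and the germline markers the highest (1008 CPM). Per summed germline marker CPM the regulators stood at 0.397 to 0.413 in wt and 0.413 to 0.428 in glh1 total RNA, and at 0.299 to 0.338 and 0.236 to 0.326 in polysomal RNA. Of the 9 oocyte markers edgeR called 1 between genotypes in total RNA, lin-41, lower in glh1 (log2 fold change -1.27, adjusted p = 0.0124). All 9 oocyte values were negative, with a median of -0.54 against -0.07 for all genes. Of the 10 germline markers it called 0, with 8 values negative and a median of -0.11. Of the markers of other tissues, edgeR called 0 between genotypes in total RNA. The 6 neuron markers summed to 385 to 444 CPM in wt and 502 to 540 CPM in glh1 total RNA, 5 epidermis markers to 695 to 1146 and 528 to 583 CPM, 5 muscle markers to 1491 to 2174 and 1341 to 1477 CPM, 5 intestine markers to 332 to 704 and 380 to 386 CPM, and 10 sperm markers to 306 to 401 and 318 to 332 CPM. In polysomal RNA, edgeR called 0 of these markers too. The sperm sum there was 742 to 937 CPM in wt and 350, 376 and 1150 CPM in glh1 libraries 1 to 3. The epidermis sum was 1288 to 1499 CPM in wt and 516, 580 and 1392 CPM in glh1. Neuron markers summed to 387 to 470 CPM in wt and 554 to 676 in glh1, muscle markers to 1894 to 2340 and 1237 to 1882, and intestine markers to 448 to 1536 and 578 to 875. The part of these markers in the genotype values was not tested. The median genotype value of the regulators in total RNA was -0.45 without the wt total library 1, -0.18 without library 2 and -0.20 without library 3.

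**Figure D4:**
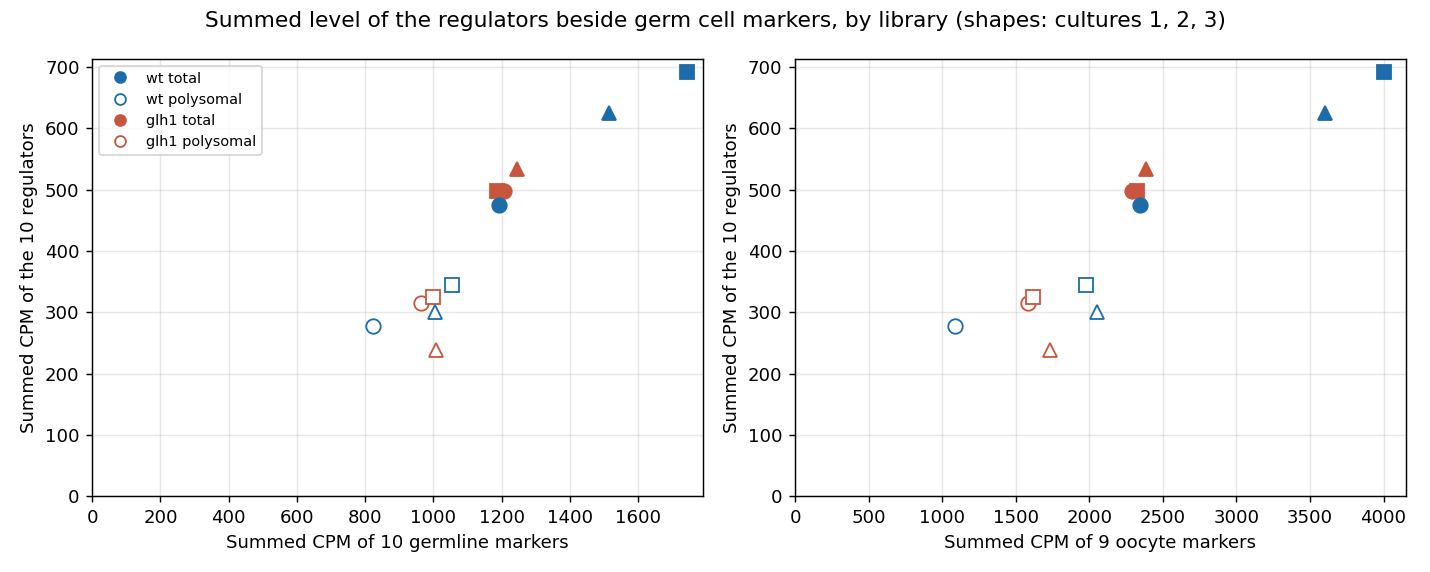
Summed CPM of the 10 regulators against that of 10 germline markers (left) and 9 oocyte markers (right), 1 point per library. Filled points are total and open points polysomal RNA; wt is blue and glh1 red. Wt total libraries 2 and 3 lie at the upper right, and wt total library 1 lies beside the glh1 total libraries.

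Transcript length moved with the fraction difference. Across 16510 genes the Spearman correlation of the polysomal log2 fold change with exon length was -0.449 in wt and -0.402 in glh1, a description across genes that share libraries. The regulators are long, from 1505 exon bases for mrg-1 to 5623 for met-1, against a median of 1311 for coding genes tested. With the length trend removed from each library, 5 regulators were lower in wt and 6 in glh1. Of all genes 16.1% were then called lower and 18.2% higher in wt, and 17% lower and 22.1% higher in glh1. In wt these were mes-3 (-1.88, adjusted p = 4.72e-05), mes-4 (-1.68, adjusted p = 5.87e-05), met-1 (-0.97, adjusted p = 0.00199), set-2 (-0.94, adjusted p = 0.00201) and mes-6 (-0.92, adjusted p = 0.003, edgeR). In glh1 they were mes-3 (-1.77), met-1 (-1.21), mes-4 (-1.33), set-2 (-0.88), mes-6 (-0.52) and met-2 (-0.52), with adjusted p from 6.58e-05 to 0.0444 (edgeR). The calls of mes-2 in wt (-0.07, adjusted p = 0.810) and glh1 (-0.10, adjusted p = 0.722) and of met-2 in wt (-0.17, adjusted p = 0.431, edgeR) were lost. Without that removal, met-2, set-2 and met-1, which are longer than mes-3 and mes-4, lay above them. The part of length in any single value was not tested.

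**Figure D5:**
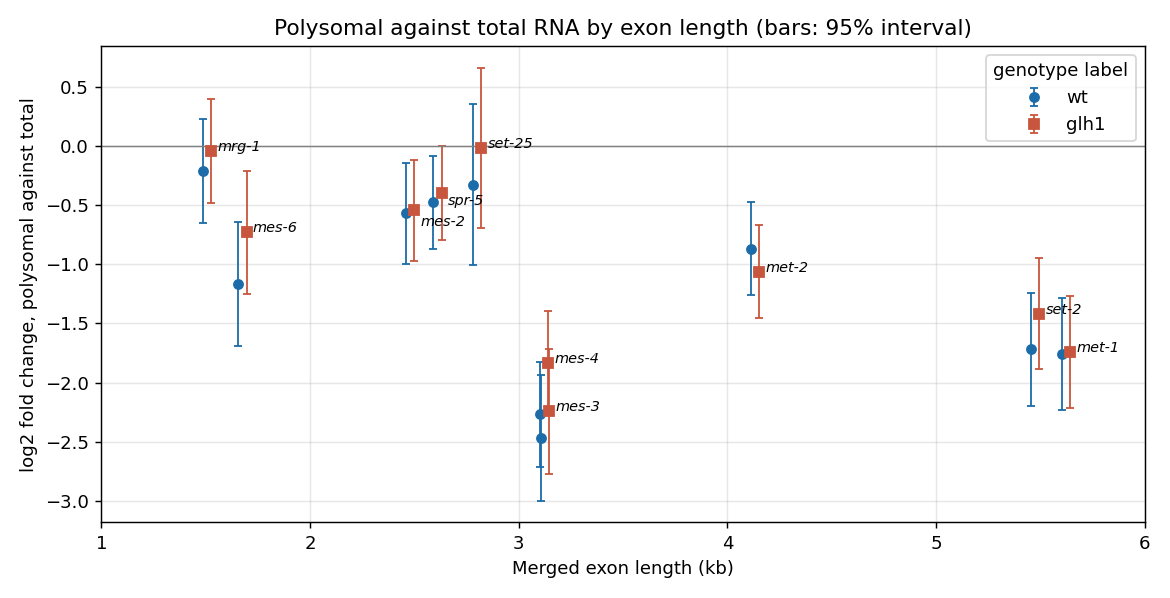
Polysomal against total log2 fold change of each regulator by merged exon length in kb, with 95% intervals. Blue circles are wt and red squares glh1, drawn slightly apart. The lowest values are those of mes-3 and mes-4, at about the middle of the length range, and met-2, set-2 and met-1, which are longer, lie above them.

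To place the regulators in their pathways, 60 other chromatin genes in 7 lists of partners, opposing enzymes and readers were examined. None was called by edgeR between genotypes in either fraction or in the interaction. By unadjusted p under 0.05 there were 13 in total RNA, 1 in polysomal RNA and 3 in the interaction, where 2945, 2590 and 491 of all 16526 genes passed. DESeq2 called 6 lower in total RNA, where it called 464 of all genes lower, and 0 in the others. Other edgeR settings called some of the 60 in total RNA, all lower. There were 9 without the glh1 polysomal library 3, where 853 of all 16865 genes tested were called lower. There were 5 with only the groups compared (626 of all 15918 genes) and 5 without both libraries of wt culture 1 (658 of 16607). Without the wt total library 1 there were 3 (270 of 16750), and with the stricter filter on low counts 1 (78 of 10479). In polysomal RNA 1 was called, lower, without both libraries of wt culture 1, where 774 of all 16607 genes were called lower. In total RNA 53 of 60 values were negative with a median of -0.35, and in polysomal RNA 38 of 60 with a median of -0.13. The medians of all genes were -0.07 and -0.01. In the fraction comparison 36 were lower and 1 higher in wt (median -0.82), and 31 lower and 4 higher in glh1 (median -0.52). Of all genes 19.8% were lower and 20.1% higher in wt (median 0.06), and 19.1% and 23.6% in glh1 (median 0.13). With the length trend removed the counts of the 60 were 25 lower and 4 higher in wt and 24 lower and 8 higher in glh1. The shares of all genes were then 16.1% lower and 18.2% higher in wt, and 17% and 22.1% in glh1. With upper-quartile scaling the counts of the 60 were 29 lower and 4 higher in wt and 27 and 6 in glh1. The shares of all genes were then 14.4% lower and 29.2% higher in wt, and 15.9% and 29.1% in glh1.

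Among partners of SET-2 in the COMPASS list, 3 of 6 were lower and 1 higher in both genotypes. The core subunits rbbp-5 (-1.52 in wt and -1.25 in glh1) and ash-2 (-1.34 and -1.59) and the CpG-binding protein cfp-1 (-0.82 and -0.69) fell, although cfp-1 was not called with the length trend removed (-0.43 and -0.37). It was also lost in wt without the total library 2 (-0.64) or the polysomal library 1 (-0.65) or 3 (-0.80), and in glh1 without the total library 2 (-0.68) or the polysomal library 3 (-0.46). The small subunit dpy-30 rose by 1.00 and 1.22, and with the length trend removed its wt value was 0.45 (adjusted p = 0.123, edgeR).

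Among 8 genes for H3K4 demethylation and the CoREST complex, in which SPR-5 works, 7 were lower in wt and 6 in glh1. The CoREST genes spr-1 (-2.55 and -2.50) and rcor-1 (-1.69 and -1.32), the KDM5-type demethylase rbr-2 (-2.16 and -1.28) and the zinc finger gene spr-4 (-1.59 and -1.13) fell, beside values of -0.48 and -0.40 for spr-5 itself that were not called. With the length trend removed the call of lsd-1 was lost in both genotypes (-0.66 and -0.74) and that of spr-3 in wt (-0.29). With upper-quartile scaling spr-3 (-0.51) and spr-2 (-0.27) lost their calls in wt. There spr-3 was called in 18 of 24 alternatives and spr-2 in 13, while spr-2 held in all 24 in glh1.

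Of 7 demethylases for H3K27 and H3K36, the marks of the MES proteins and MET-1, 3 were lower in wt, and 2 lower and 1 higher in glh1. The H3K27 demethylase utx-1 was lower in wt (-0.87), while its glh1 value of -0.36 was not called. The genes jmjd-1.2 (-0.49 and -0.50) and jmjd-3.3 (-0.77 and -0.79) fell in both, and the KDM4-type gene jmjd-2 rose in glh1 (0.74). The calls of utx-1, jmjd-1.2 and jmjd-3.3 were lost with the length trend removed (-0.31 to 0.10), and those of jmjd-1.2 and jmjd-3.3 with upper-quartile scaling (-0.63 to -0.22). Both were near the threshold: jmjd-1.2 was called in 14 of 24 alternatives in wt and 18 in glh1, and jmjd-3.3 in 10 of 23 in wt and 16 in glh1, with losses when single total or polysomal libraries of either genotype were left out.

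Of 10 genes for H3K9 readers and heterochromatin, 5 were lower in wt, and 5 lower and 1 higher in glh1. The SET domain gene set-32 (-2.36 and -1.76), the chromodomain gene cec-3 (-1.82 and -1.85), lin-13 (-1.43 and -1.06) and cec-5 (-1.41 and -1.80) fell, as did the MBT-repeat gene lin-61 in wt (-0.81). The HP1 gene hpl-1, named after its value was seen, was the higher one (0.98). With the length trend removed the calls of lin-61 (-0.45) and hpl-1 (0.61) were lost. That of hpl-1 was also lost without the glh1 total library 1 (0.87) or 3 (0.83) or the glh1 polysomal library 3 (0.53), and with only the groups compared (0.90).

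Of 7 other SET domain enzymes, 3 were lower in wt, and 2 lower and 1 higher in glh1. The genes set-18 (-1.57 and -1.34) and set-17 (-1.19 and -0.87) fell in both and the H4K20 enzyme set-1 in wt (-0.88), while set-26 rose in glh1 (0.67). The call of set-26 held in 16 of 24 alternatives. It was lost without any 1 of the glh1 total libraries (0.50 to 0.73), the glh1 polysomal library 2 (0.43) or the wt total library 3 (0.58), with no filter on low counts (0.58), with only the groups compared (0.58) and with rRNA genes removed (0.55). The call of set-17 in glh1 was lost without the glh1 total library 2 (-0.81).

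Of 14 genes of deacetylase, NuRD and MRG-1-related complexes, 9 were lower in wt and 7 in glh1 and none higher. The corepressor gene sin-3 (-1.78 and -1.79), the MYST-type acetyltransferase mys-1 (-1.71 and -1.22), the histone chaperone rba-1 (-1.13 and -0.79), the TRRAP-type gene trr-1 (-1.12 and -0.54) and the deacetylase hda-2 (-1.06 and -1.17) fell, beside a difference of -0.21 and -0.04 for mrg-1 that was not called. The call of trr-1 was lost in both genotypes with the length trend removed (-0.27 and -0.09), and in glh1 with upper-quartile scaling (-0.38) and without the glh1 total library 2 (-0.55) or the polysomal library 1 (-0.50). With the length trend removed, ssl-1 (-0.29), epc-1 (0.11) and mys-2 (-0.58) also lost their calls in wt. In glh1 so did mep-1 (-0.61) and mys-2 (-0.56). In wt epc-1 was called in 10 of 24 alternatives and mys-2 in 17, and in glh1 mys-2 in 16.

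Of 8 genes of the DREAM complex and the synMuv B class, which repress germline genes in somatic cells and act against the MES proteins there, 6 were lower in each genotype. The retinoblastoma gene lin-35 (-2.71 and -2.75), lin-9 (-2.20 and -1.74), dpl-1 (-1.53 and -1.48) and lin-54 (-1.59 and -1.75) fell in both. All of these falls were called by edgeR at adjusted p from 0.000147 to 0.00441. The call of lin-15B was lost in both genotypes with the length trend removed (0.11 and -0.26). In wt it held in 9 of 24 alternatives.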

How the data were processed

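Polyadenylated RNA was measured in 12 libraries, grouped by their genotype and fraction labels. The authors deposited estimated counts, with 3.79 to 4.80% of values per library off a whole number by more than 1e-06, and rlog values on a log2 scale for 12709 genes. The submitters' processing notes list Trimmomatic 0.36, STAR 2.6.1b, RSEM 1.3.0 and WBcel235, with R 3.6.1 and DESeq2 1.24.0, while the count table's name mentions kallisto, so which program counted the reads is uncertain. Annotation was Ensembl release 115.

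Rounded counts passed filterByExpr, TMM scaling and a robust quasi-likelihood fit of 4 groups (edgeR 4.0.16, R 4.3.3), with Benjamini-Hochberg adjustment over all genes in each of 5 comparisons. Library totals were 34520267 to 49672537 counts. Pooled over genes, cultures of a group differed by more than counting error (chi-square per degree of freedom 23.1 to 1415). The largest value, 1415, came from the glh1 polysomal libraries 1 and 2, where rRNA genes held 3.07 and 45.7% of the counts. The part of rRNA genes in these pooled values was not tested, so they do not give the spread of a single regulator. The median SE of log2 fold changes between genotypes in total RNA was 0.306. In a check of that comparison on simulated data (16359 genes), 69 of 98 changes of 4-fold were called, with 5 false calls. The data were simulated once, with 99 genes changed 2-fold and 98 changed 4-fold in glh1 total RNA. All other means were equal across the groups, so the fractions did not differ and no library was set apart. Adjusted p depends on how many genes change, so these rates need not hold for the real libraries.

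Both libraries of a culture share a lysate, so fractions are paired by design. Deviations from group means correlated in wt cultures (0.756, 0.440 and 0.304) and did not in glh1 (0.0990, -0.163 and -0.206). The regulators and lists were chosen with earlier results of these data known. All regulators were named, and from each list the called genes, up to 4 a comparison by smallest adjusted p. Roles of genes are textbook knowledge. Alternatives were scaling by the upper quartile or by DESeq2 size factors, filters of none and of 5 CPM in 3 libraries, fits on only the groups compared, DESeq2 1.42.0, limma 3.58.1 on the rlog values, a replicate block, each library or wt culture 1 left out, rRNA genes removed, and a smooth trend on exon length removed. That trend together with the culture block was added after seeing the data. Within-culture ratios over all genes used a pseudocount of 0.05 CPM. Figures were drawn with matplotlib 3.10.9.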

Additional observations from a re-analysis of the deposited data

How the results depend on the processing

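In total RNA the count of regulators called between genotypes was 0 under every alternative run except without the glh1 polysomal library 3, so it ran from 0 to 1 over the libraries left out; in polysomal RNA and for the interaction it was 0 throughout. In the fraction comparisons the count ran from 5 to 8 in each genotype, always lower, and with the culture as a replicate block it was 7 in wt and 7 in glh1, so that the paired fit changed no count. With the number as a replicate block the genotype counts were 0 and 0. The calls of mes-3, mes-4, met-1 and set-2 held in all 24 alternatives in both genotypes, that of mes-6 in 24 in wt and 23 in glh1, of met-2 in 22 and 24, and of mes-2 in 12 and 17. On the rlog values, which shrink differences, mes-3 was at -1.38 in wt and -1.19 in glh1. Why settings differed was not tested. With 3 cultures a group, most 2-fold changes given to genes drawn from all those tested were not called between genotypes in simulated data. Those data had few changed genes and no difference between fractions, so the rate need not hold for the regulators. The regulators' SE in total RNA, 0.18 to 0.31, was below the median of all genes, 0.306, except for set-25. Their 95% intervals there reached a 2-fold fall only for mes-3 (-1.13) and set-25 (-1.38), and a 2-fold rise for none. Each regulator had at least 137 estimated counts in each library, and the part of depth was not tested.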
